A study of Mus musculus with 6 samples.

Results

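The genes described here run the secretory pathway of antibody-producing cells and the unfolded protein response that adjusts it. The list named 37 genes by their known roles, and 36 of them were measured among 22180 genes on the arrays. Pdia4 was left out because its probe set was annotated with several genes. The remaining 36 comprised 3 sensors of stress in the endoplasmic reticulum, 11 chaperones and cofactors, 6 genes of lectin-assisted and oxidative folding, 7 of degradation, 5 of translocation and signal peptide cleavage, 2 of the COPII vesicle coat and 2 transcription regulators of secretory cells.

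The samples were total RNA from DP42, a murine multiple myeloma line, on 6 Affymetrix arrays. Cells were kept for 24 h alone, with mouse B cells, which the study treated as the control partner, or with mouse neutrophils, which the labels also call IMC, with 2 arrays in each of the 3 groups. Flow sorting separated co-cultured cells before RNA extraction. No genotype, added agent or source animal is given for any group, and the labels leave unsaid if arrays sharing a group were separate cultures. The p-values therefore rest on array-to-array spread that could be technical only.

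Plasma cells and the tumours derived from them make very large amounts of immunoglobulin, which enters the endoplasmic reticulum through the Sec61 channel, is folded and disulfide-bonded there by chaperones, and leaves in COPII vesicles. When unfolded protein accumulates, the membrane sensors IRE1 (gene Ern1), PERK (Eif2ak3) and ATF6 signal to the nucleus. IRE1 splices the messenger of the transcription factor XBP1, ATF6 is cleaved to release a transcription factor, and PERK slows translation and raises ATF4, and these factors induce chaperones and the machinery that returns misfolded protein to the cytosol for degradation. Splicing and cleavage are not seen by a probe set that reads the amount of a transcript.

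Promoter sequence was examined first because the response acts through short shared elements. Promoters of 29 of the 36 genes were found in the RefSeq table of GRCm38.p6, each covering 250 bases before and 50 after an annotated start. The endoplasmic reticulum stress element, ERSE, was searched on both strands as CCAAT, 9 bases of any kind and CCACG. It was present in the promoters of 9 of the 29 genes and in 39 of all 32851 promoters of the same length, or 0.119%. Here and below a listed gene counts if any of its promoters matches, while the background counts single promoters. The genes were also chosen for known roles in this response, so the shares are a description and not a test. The sites are printed with 8 bases on either side, 5′ to 3′ on the strand named, with the matched letters in capitals.

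Hspa5, chr2:34772017-34772051, plus strand: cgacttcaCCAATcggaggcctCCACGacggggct
Derl3, chr10:75893234-75893268, minus strand: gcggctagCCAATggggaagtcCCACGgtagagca
Hsp90b1, chr10:86705630-86705664, minus strand: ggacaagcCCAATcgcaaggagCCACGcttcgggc
Hsp90b1, chr10:86705525-86705559, plus strand: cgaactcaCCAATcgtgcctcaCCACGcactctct
Canx, chr11:50325792-50325826, minus strand: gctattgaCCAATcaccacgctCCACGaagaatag
Pdia6, chr12:17266483-17266517, plus strand: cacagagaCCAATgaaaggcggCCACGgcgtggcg
Ero1b, chr13:12565674-12565708, minus strand: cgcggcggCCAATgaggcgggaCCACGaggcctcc
Dnajc3, chr14:118937819-118937853, plus strand: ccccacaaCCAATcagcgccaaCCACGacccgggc
Creld2, chr15:88819512-88819546, minus strand: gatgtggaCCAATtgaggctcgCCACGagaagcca
Syvn1, chr19:6046524-6046558, plus strand: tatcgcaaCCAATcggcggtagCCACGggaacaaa

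These 10 sites belonged to chaperones (Hspa5, Hsp90b1, Dnajc3, Creld2), folding genes (Canx, Pdia6, Ero1b) and degradation genes (Derl3, Syvn1), and Hsp90b1 held a pair on opposite strands. A second form, ERSE-II, was searched as ATTGG, 1 base of any kind and CCACG. It was present in the promoters of Dnajb11 and Herpud1 and in 12 of all 32851 promoters, or 0.0365%.

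Herpud1, chr8:94386369-94386395, plus strand: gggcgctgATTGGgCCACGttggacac
Dnajb11, chr16:22857844-22857870, plus strand: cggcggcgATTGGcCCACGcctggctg

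The UPRE, TGACGTGG, was found in Sec24d and in 0.676% of all promoters, and an element bound by ATF4, TGATGCAA, in Herpud1 and in 0.895%. The site of neither overlapped another match. Both are printed in the same way.

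Sec24d, chr3:123267462-123267485, plus strand: cgggcgccTGACGTGGcactagca
Herpud1, chr8:94386309-94386332, minus strand: gtgcgggcTGATGCAAcccgccgt

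The whole window of Hspa5, the gene of the chaperone BiP and the textbook readout of the response, is shown with its single exact ERSE in capitals.

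Hspa5, chr2:34771840-34772139, plus strand: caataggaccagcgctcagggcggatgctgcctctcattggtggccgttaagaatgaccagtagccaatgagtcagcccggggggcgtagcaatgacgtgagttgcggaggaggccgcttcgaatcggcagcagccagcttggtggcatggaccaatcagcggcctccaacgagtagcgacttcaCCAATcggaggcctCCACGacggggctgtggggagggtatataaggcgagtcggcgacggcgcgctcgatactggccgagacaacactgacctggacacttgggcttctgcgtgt

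A match is a description of letters and not of binding, and a window without a match says nothing about a factor. In the expression data, the 9 genes with an ERSE had median log2 differences of 0.13 for neutrophil against B-cell co-culture, 0.05 for neutrophil co-culture against culture alone and -0.03 for B-cell co-culture against alone. The 20 genes whose promoters lacked it had medians of 0.17, 0.11 and -0.02. The difference between these medians was not tested.

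Marker genes of several cell types were read on the same arrays. Among 7 measured plasma cell markers Slamf7, Irf4, Xbp1 and Sdc1 had group means of 8.49 or more on the log2 scale, while Jchain, the joining chain of secreted antibody, lay under the lower quartile of genes on each of the 6 arrays. Prdm1, the regulator of plasma cell identity, and Tnfrsf17, the receptor BCMA, were under the median brightness, with group means of 6.74 to 6.96 and 5.82 to 6.13. Pax5, Cd22, Cd79a and Cd79b, genes of mature B cells, had means in cells cultured alone of 10.98, 10.98, 12.15 and 12.50. The label of a plasma cell programme therefore holds for part of its markers. Of 19 neutrophil markers 5 rose in neutrophil co-culture against culture alone in limma's test, Ngp by 3.53-fold, Retnlg by 2.28-fold, Lcn2 by 1.60-fold, S100a8 by 1.53-fold and Elane by 1.46-fold, and Ngp alone rose against B cells, by 2.76-fold. Over all 22180 genes 29 rose against culture alone and 7 against B cells. Ngp, Retnlg and S100a8 lay under the lower quartile on both alone arrays. B cells against alone gave log2 differences of 0.36, -0.08, 0.13, -0.12 and 0.28 for these 5 genes in that order. The mean of the list was 6.50 and 6.57 in culture alone, 6.55 and 6.64 beside B cells and 6.92 and 6.97 beside neutrophils. Ly6g and Ctsg, granulocyte genes, lay under the lower quartile of genes on each of the 6 arrays, where Ly6g still differed by 0.52 against B cells without passing (adjusted p = 0.132). Of 7 plasma cell and 10 mature B cell markers 0 changed in any comparison, with B cell list means of 9.49 to 9.57 on the 6 arrays, and 0 of 8 monocyte, 8 T and NK cell and 3 erythroid markers changed. Whether the neutrophil marker transcripts came from neutrophils or from DP42 cells was not tested. Their part in the differences described next was not tested either. In sorted bulk RNA fewer cells of a type and less RNA per cell cannot be told apart.

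None of the 36 genes changed between neutrophil and B-cell co-culture in limma's test over all genes (adjusted p of 0.144 or more), against 11 of 22180 genes, or 0.0496%. Those 11 were 7 higher and 4 lower, and 45 higher and 90 lower with arrays centred on their medians. At an unadjusted p under 0.05, 3 of the 36 (8.33%) were higher and 0 lower, where 8.1% of all genes were higher and 12.0% lower, and 14.4% of bright genes were higher and 3.93% lower (bright meaning at or above the median brightness of all genes). The differences of the 36 ran from -0.11 to 0.46 with a median of 0.14, and 32 were positive. With quantile normalisation the median was 0.05 with 27 positive, and with arrays centred on their medians 0.23 with 35 positive. The median of all genes was 0.01, but bright genes, among which 34 of the 36 fell, had a median of 0.13 and were positive in 80.1% of cases. The 36 therefore lay near the bulk of bright genes. On the log2 scale the upper end of the 95% interval, taken gene by gene without adjustment, was at most 0.72 for any of them, under the value of 1 that marks 2-fold, and it was under 1.5-fold for 34 of the 36.

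Between neutrophil co-culture and culture alone 0 of the 36 changed either (adjusted p of 0.0974 or more), against 331 genes, or 1.49%, of which 29 were higher and 302 lower. At an unadjusted p under 0.05, 1 was higher and 0 lower, where 5.97% of all genes were higher and 11.7% lower, and 9.59% of bright genes were higher and 2.71% lower. The median difference was 0.10 with 33 positive, beside 0.02 for all genes and 0.11 for bright genes. It was 0.05 with quantile normalisation and 0.17 with centring. The highest upper bound was 0.71, and 35 of the 36 bounds were under 1.5-fold. Both neutrophil comparisons share the same 2 neutrophil arrays, so their values are not independent of each other. Adding as a covariate the mean of 1390 receptor genes of smell and pheromone sensing (olfactory and vomeronasal), taken array by array, turned the medians of the 36 to -0.09 and -0.13. The receptor mean was 5.56 and 5.51 in culture alone, 5.27 and 5.59 beside B cells and 5.13 and 5.05 beside neutrophils. Within groups it varied mainly between the B-cell arrays, and it was lowest on the neutrophil arrays. That fit therefore cannot separate the covariate from neutrophil co-culture, and no conclusion is drawn from it. Without B-cell replicate 2 and without the covariate, the median against B cells was 0.02.

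**Figure D1:**
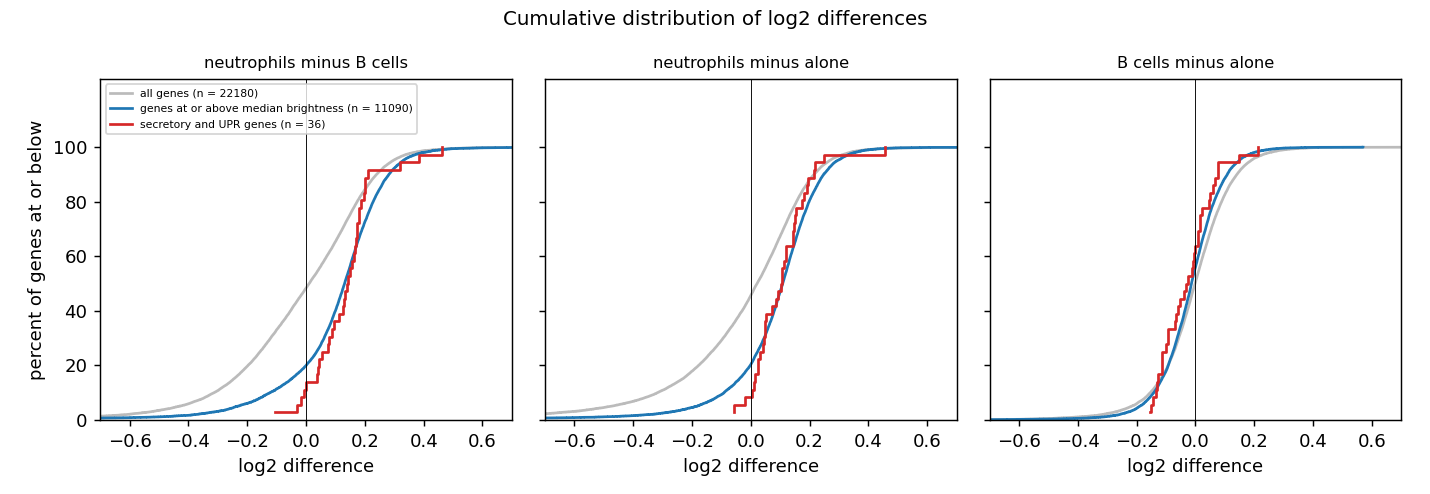
Cumulative distribution of log2 differences (horizontal axis) as percent of genes (vertical axis) in the 3 comparisons, for all 22180 genes (grey), the 11090 at or above median brightness (blue) and the 36 secretory and unfolded protein response genes (red). In both neutrophil comparisons the red line lies right of the grey one and close to the blue one, with medians of 0.14 against 0.13 and 0.10 against 0.11.

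Dnajb9 had the largest difference of the 36 in both neutrophil comparisons. It encodes a BiP cofactor of the DnaJ family that is a target of XBP1 and that restrains IRE1. It read 9.99 and 9.99 in culture alone, 10.13 and 9.84 beside B cells and 10.43 and 10.46 beside neutrophils (log2). Both neutrophil arrays lay above all 4 others, while the alone and B-cell arrays overlapped. That arrangement held for 8 of the 36 (22.2%), for 23.4% of all genes and for 42.4% of bright genes. The difference was 0.46 ± 0.11 (SE) against B cells, or 1.38-fold, with a 95% interval of 0.21 to 0.72 and adjusted p = 0.144, and 0.46 ± 0.11 against culture alone, or 1.37-fold, with an interval of 0.20 to 0.71 and adjusted p = 0.0974. Neither passed over all genes in limma. Among 11090 bright genes 0.902% had a larger difference against B cells and 0.415% a larger one against culture alone. Dnajb9 was picked as the largest of the 36, so these ranks do not measure how unusual it was. Among other genes of the pathway, described below, the highest difference was 0.47 against B cells and 0.36 against culture alone. Against culture alone 331 of all genes passed in the main fit, 1338 with only the 4 arrays compared and 353 with trended, robust variance moderation. Dnajb9 passed in limma with only the 4 arrays compared (adjusted p = 0.0228, the same fit for this comparison as leaving out either B-cell replicate) and with trended, robust variance moderation (adjusted p = 0.0476). It did not pass with quantile normalisation (adjusted p = 0.131) or without any 1 of the alone or neutrophil arrays (adjusted p from 0.299 to 0.443). With the receptor mean as a covariate its differences were 0.17 and 0.07, but that fit cannot separate the covariate from neutrophil co-culture. Between B-cell co-culture and culture alone it differed by -0.01 ± 0.11.

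**Figure D2:**
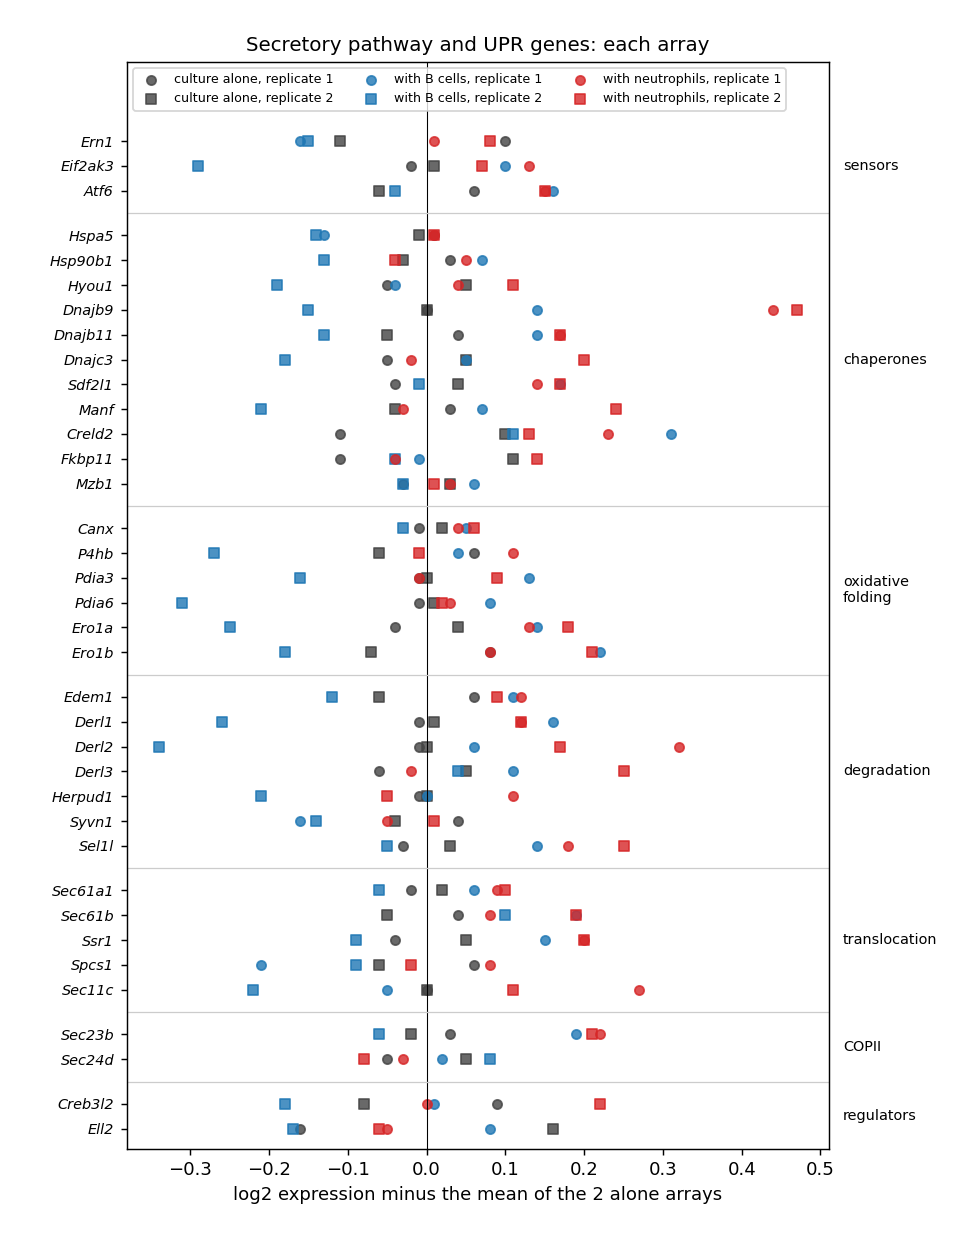
Each point is 1 array, placed by its log2 expression minus the mean of the 2 alone arrays for that gene (horizontal axis), with genes on the vertical axis grouped by role; colours mark the culture group and shapes the replicate. Dnajb9 is the only gene with both neutrophil arrays more than 0.4 above the alone mean, and B-cell replicate 2 is the leftmost point for 25 of the 36 genes.

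The sensors were close across cultures. Ern1, the gene of IRE1, read 9.12 and 8.91 in culture alone, 8.86 and 8.87 beside B cells and 9.03 and 9.10 beside neutrophils. Its B-cell arrays were the lowest pair, below both alone and both neutrophil arrays, and it differed by 0.20 ± 0.10 for neutrophils against B cells (adjusted p = 0.292) and by 0.05 ± 0.10 against culture alone. Eif2ak3, the gene of PERK, read 8.59 and 8.62 in culture alone, 8.71 and 8.32 beside B cells and 8.74 and 8.68 beside neutrophils. B-cell replicate 2 was its low array, and the difference of 0.20 ± 0.13 against B cells did not pass (adjusted p = 0.368). Atf6 read 10.89 and 10.77 in culture alone, 10.99 and 10.79 beside B cells and 10.98 and 10.98 beside neutrophils, with both neutrophil arrays above both alone arrays and below B-cell replicate 1, a difference of 0.15 ± 0.10 against culture alone.

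Hspa5, whose product BiP holds the sensors inactive and binds nascent antibody heavy chain, varied by only 0.15 over the 6 arrays. It read 10.48 and 10.46 in culture alone, 10.34 and 10.33 beside B cells and 10.48 and 10.48 beside neutrophils. The B-cell pair was the lowest, the neutrophil pair lay at the level of the alone arrays, and the difference was 0.14 ± 0.09 against B cells (interval -0.06 to 0.34) and 0.01 ± 0.09 against culture alone (interval -0.19 to 0.21). Hsp90b1, the HSP90 of this compartment, which folds Toll-like receptors and integrins, read 12.05 and 11.99 in culture alone, 12.09 and 11.89 beside B cells and 12.07 and 11.98 beside neutrophils, with the groups overlapping and a difference of 0.00 ± 0.10 against culture alone. Hyou1, a large HSP70 that reloads BiP with nucleotide, read 10.30 and 10.40 in culture alone, 10.31 and 10.16 beside B cells and 10.39 and 10.46 beside neutrophils. Its neutrophil arrays lay above both B-cell arrays but overlapped the alone arrays (0.19 ± 0.10 and 0.07 ± 0.10).

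The other cofactors of BiP differed less between cultures than Dnajb9. Dnajb11, which delivers substrates to BiP, read 10.29 and 10.20 in culture alone, 10.39 and 10.12 beside B cells and 10.42 and 10.42 beside neutrophils, a difference of 0.17 ± 0.11 against B cells and 0.17 ± 0.11 against culture alone. Dnajc3, a further DnaJ cofactor and inhibitor of PERK, read 9.14 and 9.24 in culture alone, 9.24 and 9.01 beside B cells and 9.17 and 9.39 beside neutrophils and overlapped in every comparison. Sdf2l1, which works with DnaJ proteins to hold substrates soluble, read 10.65 and 10.73 in culture alone, 10.86 and 10.68 beside B cells and 10.83 and 10.86 beside neutrophils. Its neutrophil arrays lay above the alone arrays by 0.15 ± 0.10 and overlapped the B-cell arrays. Manf, a secreted stress protein that binds BiP, read 8.10 and 8.03 in culture alone, 8.14 and 7.86 beside B cells and 8.04 and 8.31 beside neutrophils and overlapped in every comparison.

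Creld2, a stress-induced isomerase-like protein, was higher on all co-culture arrays than on the alone arrays. It read 10.00 and 10.21 in culture alone, 10.42 and 10.22 beside B cells and 10.34 and 10.24 beside neutrophils. Both B-cell arrays lay above both alone arrays, by 0.21 ± 0.12, the largest positive difference of the 36 in that comparison, and the neutrophil arrays lay above the alone arrays by 0.18 ± 0.12, so neutrophil against B-cell co-culture gave -0.03 ± 0.12. None of these passed. Fkbp11, a prolyl isomerase of secretory cells, was 1 of the pair of genes under the median brightness and read 6.54 and 6.76 in culture alone, 6.64 and 6.61 beside B cells and 6.61 and 6.79 beside neutrophils, with all groups overlapping. Mzb1, which helps assemble IgM in B and plasma cells, read 12.10 and 12.16 in culture alone, 12.19 and 12.10 beside B cells and 12.16 and 12.14 beside neutrophils. Its range over the 6 arrays was 0.08, the narrowest of the 36.

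Genes of lectin-assisted and oxidative folding stood 0.04 to 0.21 higher with neutrophils than with B cells, and arrays of those groups overlapped for all 6. Canx, the membrane lectin calnexin, read 12.79 and 12.82 in culture alone, 12.85 and 12.77 beside B cells and 12.84 and 12.86 beside neutrophils. It varied by 0.09, and its neutrophil arrays lay above the alone arrays by only 0.05 ± 0.09. P4hb, protein disulfide isomerase itself, read 10.83 and 10.71 in culture alone, 10.81 and 10.50 beside B cells and 10.88 and 10.76 beside neutrophils. Pdia3, which works with calnexin, read 11.96 and 11.97 in culture alone, 12.10 and 11.81 beside B cells and 11.96 and 12.06 beside neutrophils, and Pdia6, an isomerase that also acts on IRE1 and PERK, 10.19 and 10.21 in culture alone, 10.28 and 9.89 beside B cells and 10.23 and 10.22 beside neutrophils. For each of these isomerases B-cell replicate 2 was the lowest array, and neutrophil against alone differences were 0.05, 0.04 and 0.02.

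The oxidases that recharge these isomerases were both present. Ero1a (Ero1l in older annotation), the form also induced by hypoxia, read 10.62 and 10.70 in culture alone, 10.80 and 10.41 beside B cells and 10.79 and 10.84 beside neutrophils. Ero1b (Ero1lb), the form typical of professional secretory cells, read 8.77 and 8.62 in culture alone, 8.91 and 8.51 beside B cells and 8.77 and 8.90 beside neutrophils. Neutrophil arrays lay above alone arrays for both, by 0.15 ± 0.13 and 0.14 ± 0.14 on the group means. For Ero1b the margin was below rounding, since neutrophil replicate 1 and alone replicate 1 both read 8.77. The B-cell replicates lay on either side of the alone arrays.

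Among degradation genes Derl2 had the widest range of the 36, 0.66. Derlins are membrane proteins through which misfolded chains pass back to the cytosol. Derl2 read 8.25 and 8.26 in culture alone, 8.32 and 7.92 beside B cells and 8.58 and 8.43 beside neutrophils, with both neutrophil arrays above all 4 others, a difference of 0.38 ± 0.14 against B cells (interval 0.07 to 0.69, adjusted p = 0.204) and 0.25 ± 0.14 against culture alone (adjusted p = 0.363). Against B cells it was 0.18 without B-cell replicate 2, its lowest array, and 0.58 without B-cell replicate 1. A dimmer second probe set for Derl2, with a mean of 6.54, gave -0.08 and -0.14. Derl1 read 11.06 and 11.08 in culture alone, 11.23 and 10.81 beside B cells and 11.19 and 11.19 beside neutrophils and differed by 0.17 ± 0.13 and 0.12 ± 0.13. Derl3, the derlin most tied to secretory cells, read 9.44 and 9.55 in culture alone, 9.61 and 9.54 beside B cells and 9.48 and 9.75 beside neutrophils, with neutrophil replicate 1 inside the range of the other groups.

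Of the ubiquitin ligase complex, Sel1l, its adaptor, read 9.73 and 9.79 in culture alone, 9.90 and 9.71 beside B cells and 9.94 and 10.01 beside neutrophils. Both neutrophil arrays lay above all others, by 0.17 ± 0.10 against B cells (adjusted p = 0.339) and 0.22 ± 0.10 against culture alone (adjusted p = 0.313). Syvn1, the ligase HRD1 itself, read 10.54 and 10.46 in culture alone, 10.34 and 10.36 beside B cells and 10.45 and 10.51 beside neutrophils, low on the B-cell pair, with 0.13 ± 0.09 for neutrophils against B cells and -0.02 ± 0.09 against culture alone. Herpud1, a membrane protein of the complex and a common stress marker, read 10.91 and 10.92 in culture alone, 10.92 and 10.71 beside B cells and 11.03 and 10.87 beside neutrophils, and Edem1, a lectin that selects trimmed glycoproteins, 10.56 and 10.44 in culture alone, 10.61 and 10.38 beside B cells and 10.62 and 10.59 beside neutrophils. Their neutrophil and B-cell arrays overlapped, with differences of 0.13 ± 0.11 and 0.11 ± 0.11.

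Of the 5 translocation genes Sec61a1, Ssr1 and Sec11c were among the 8 with both neutrophil arrays above all 4 others. That arrangement held for 22.2% of the 36, 23.4% of all genes and 42.4% of bright genes. No difference of the 5 genes passed. Sec61a1, the channel, read 11.42 and 11.46 in culture alone, 11.50 and 11.38 beside B cells and 11.53 and 11.54 beside neutrophils, a difference of 0.09 ± 0.09 against B cells and the same against culture alone, with a range of 0.16. Sec61b, a small subunit of the channel, read 7.47 and 7.38 in culture alone, 7.62 and 7.53 beside B cells and 7.51 and 7.62 beside neutrophils, and both co-cultures lay above the alone arrays. Ssr1, a subunit of the translocon-associated complex, read 11.01 and 11.10 in culture alone, 11.20 and 10.96 beside B cells and 11.25 and 11.25 beside neutrophils and stood 0.17 ± 0.11 and 0.19 ± 0.11 higher with neutrophils.

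Signal peptidase, which trims the leader of each secreted chain, is represented by its catalytic subunit Sec11c and the accessory subunit Spcs1. Sec11c read 9.92 and 9.92 in culture alone, 9.87 and 9.70 beside B cells and 10.19 and 10.03 beside neutrophils. Both neutrophil arrays lay above all others and both B-cell arrays below all others, giving 0.32 ± 0.10 against B cells (interval 0.08 to 0.56, adjusted p = 0.188) and 0.19 ± 0.10 against culture alone (adjusted p = 0.362). Spcs1 read 8.70 and 8.58 in culture alone, 8.43 and 8.55 beside B cells and 8.72 and 8.62 beside neutrophils, with B-cell arrays again below all others (-0.16 ± 0.10 against alone) and neutrophil arrays overlapping the alone ones.

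The COPII pair differed in sign. Sec23b, of the inner coat, read 10.15 and 10.10 in culture alone, 10.31 and 10.06 beside B cells and 10.34 and 10.33 beside neutrophils, with both neutrophil arrays above all others and differences of 0.15 ± 0.11 and 0.21 ± 0.11. Sec24d, a cargo-binding subunit and the other gene under the median brightness, read 6.11 and 6.21 in culture alone, 6.18 and 6.24 beside B cells and 6.13 and 6.08 beside neutrophils. It was the only gene of the 36 whose neutrophil arrays lay below both B-cell arrays, by -0.11 ± 0.09 (adjusted p = 0.482), where 26.7% of all genes and 10.6% of bright genes did so.

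Neither regulator separated the groups. Creb3l2, a membrane-bound transcription factor related to ATF6 that induces coat proteins, read 8.28 and 8.11 in culture alone, 8.20 and 8.01 beside B cells and 8.19 and 8.41 beside neutrophils. Ell2, an elongation factor that favours the secreted form of immunoglobulin heavy chain in plasma cells, read 10.69 and 11.01 in culture alone, 10.93 and 10.68 beside B cells and 10.80 and 10.79 beside neutrophils, with the alone replicates near both ends of its range. A second Ell2 probe set, with a mean of 8.79, gave 0.22 for neutrophils against B cells where the brighter one gave -0.02. Second probe sets of Edem1, Ero1a and Sec61b, with means of 6.58, 7.82 and 5.88, gave -0.03, -0.05 and 0.05 in that comparison, and that of Ssr1, with a mean of 7.06, gave 0.19.

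**Figure D3:**
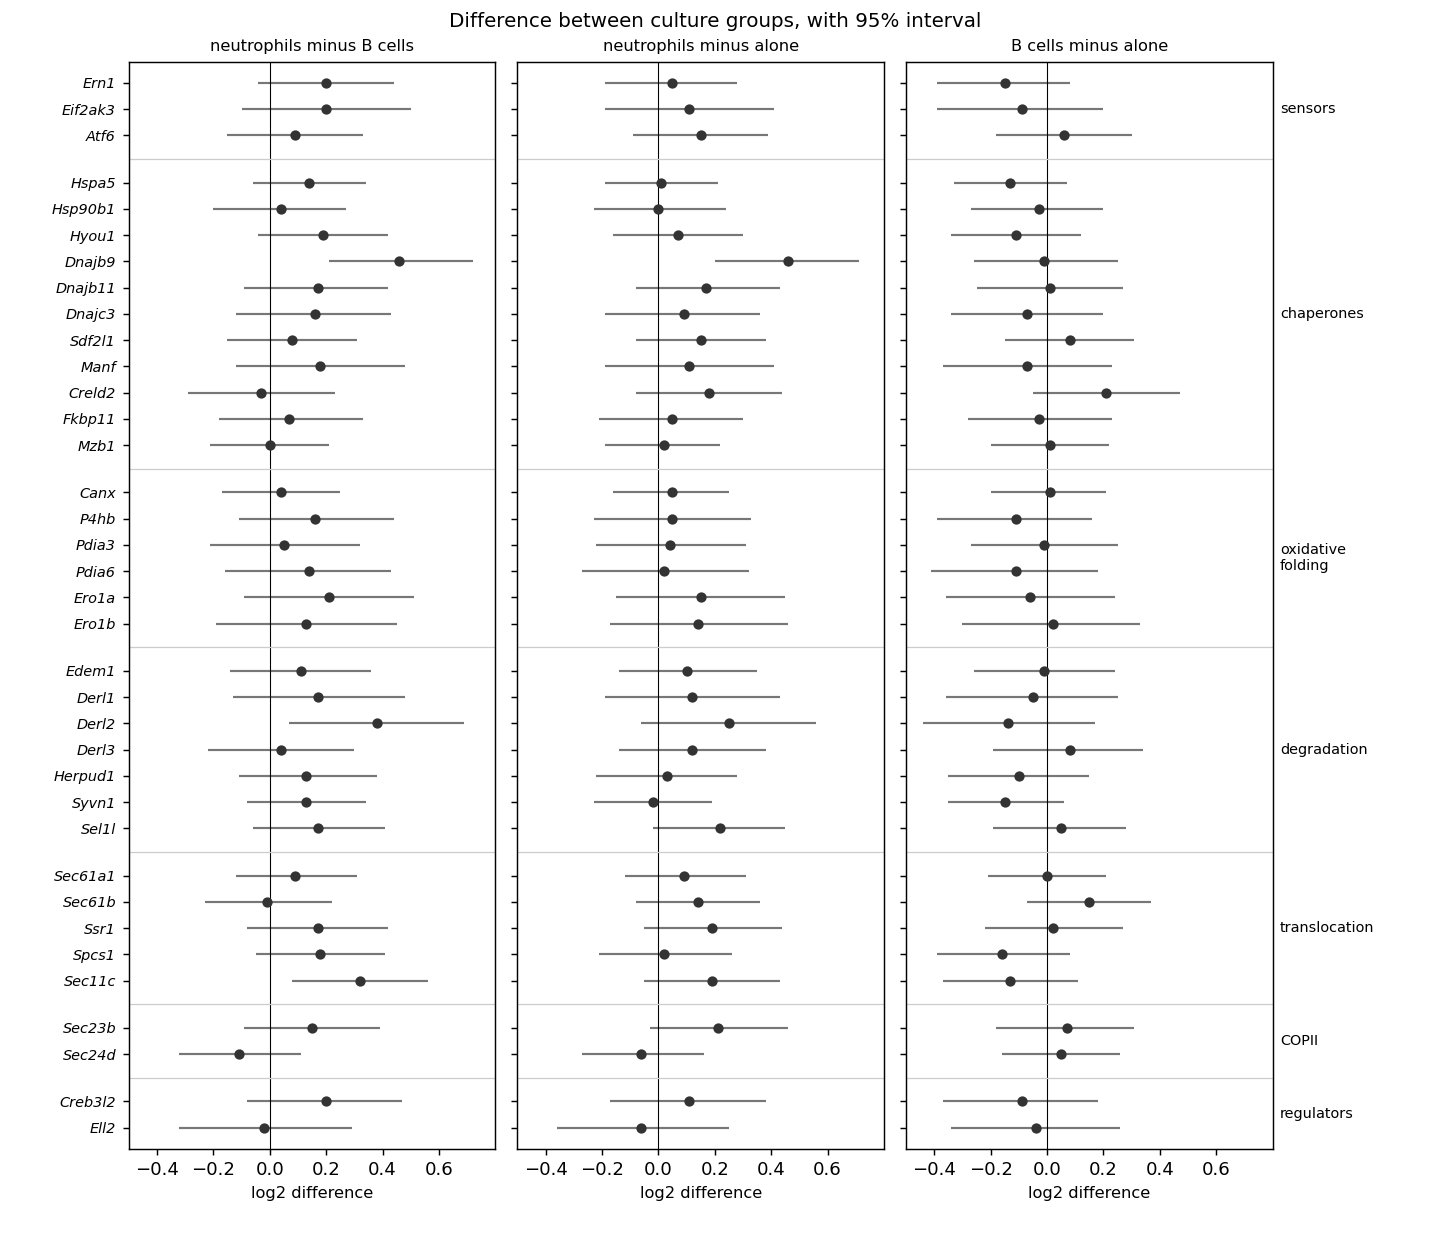
Log2 difference (horizontal axis, dots) with its 95% interval (lines) from limma for each of the 36 genes (vertical axis, by role) in the 3 comparisons. Intervals clear of 0 are those of Dnajb9, Derl2 and Sec11c for neutrophils minus B cells and of Dnajb9 for neutrophils minus alone.

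Arrays were also compared by whether the groups overlapped. Against B cells 13 of the 36 (36.1%) had both neutrophil arrays above both B-cell arrays, where 30.0% of all genes and 52.1% of bright genes did. Against culture alone 19 (52.8%) had both neutrophil arrays higher, where 35.6% of all genes and 60.1% of bright genes did, and 0 had both lower, where 27.4% of all genes and 9.86% of bright genes did. Both shares of the 36 lay between those of all genes and of bright genes.

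B-cell co-culture against culture alone gave 0 changed genes among the 36 and 0.0% of all genes changed in limma (adjusted p of 1 for each of the 36). At an unadjusted p under 0.05 none of the 36 was higher or lower, where 1.61% of all genes were higher and 2.3% lower. The median difference was -0.03, with 13 positive, from -0.16 for Spcs1 to 0.21 for Creld2. Both B-cell arrays lay above both alone arrays for 2 of the 36, Creld2 and Sec61b, where 13.5% of all genes and 10.7% of bright genes did so. They lay below for 5, Ern1, Hspa5, Syvn1, Spcs1 and Sec11c, where 13.5% of all genes and 14.8% of bright genes did so. The 5 were 13.9% of the 36, near both of those shares. Leaving out B-cell replicate 2 turned the median to 0.08, and leaving out replicate 1 took it to -0.14.

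The 2 B-cell arrays were unlike each other over the whole list. B-cell replicate 2 was the lowest of the 6 arrays for 25 of the 36 genes (69.4%), as it was for 56.6% of bright genes. B-cell replicate 1 was the highest for 8 (22.2%), a larger share than the 8.59% of bright genes. The median deviation of the 36 from each gene's own mean was -0.04 and -0.02 in culture alone, 0.06 and -0.15 beside B cells and 0.06 and 0.09 beside neutrophils. Bright genes gave -0.03, -0.03, 0.02, -0.12, 0.07 and 0.09 in that order, and the olfactory and vomeronasal receptor genes, which are mostly dim, gave 0.18, 0.13, -0.07, 0.21, -0.19 and -0.26. The secretory genes moved with bright genes and opposite to receptor genes, and what sets that shift was not tested.

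**Figure D4:**
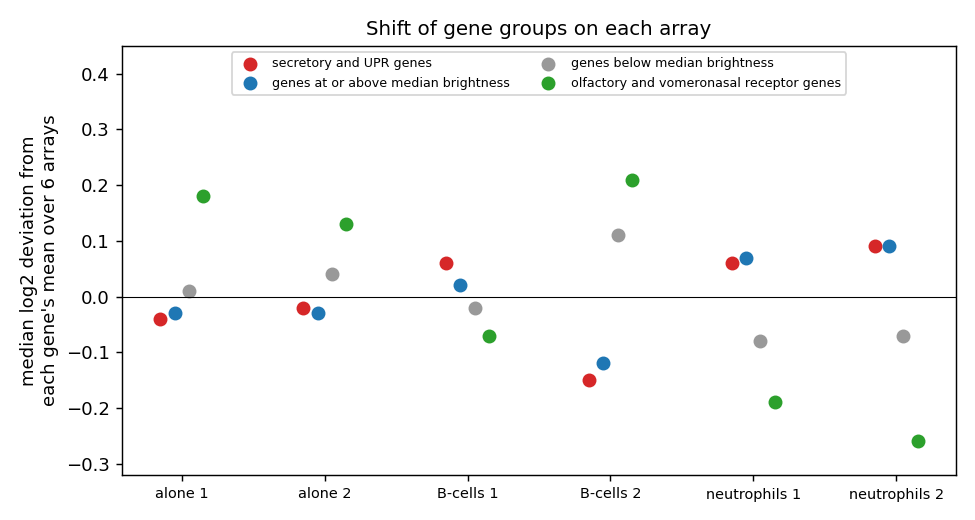
Median log2 deviation from each gene's mean over the 6 arrays (vertical axis) on each array (horizontal axis), for the 36 secretory and unfolded protein response genes, genes at or above and below median brightness, and olfactory and vomeronasal receptor genes. On B-cell replicate 2 the 36 genes and the bright genes sit at -0.15 and -0.12 while the receptor genes sit at 0.21.

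Without B-cell replicate 1, replicate 2 alone stood for B cells and was assumed to vary like the other groups. The median of the 36 against B cells was then 0.23, with 35 positive. Replicate 2 was the lowest array for 56.6% of bright genes too. Differences were 0.61 for Dnajb9, 0.58 for Derl2, 0.41 for Sec11c, 0.40 for Eif2ak3 and Ero1a, 0.38 for Derl1 and 0.33 for Pdia6. These genes are listed because they passed in that fit, which rests on 1 B-cell array. A large share of all genes passed in it too, so passing does not set them apart. With both B-cell arrays these 7 genes had adjusted p from 0.144 to 0.504 in limma.

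Other genes of the pathway, a list of 104 of which 99 were measured, had medians close to those of the 36 and a larger share whose neutrophil arrays lay apart. In limma 0 of the 99 changed in any comparison. At an unadjusted p under 0.05, 11 were higher and 1 lower with neutrophils than with B cells, 5 higher and 0 lower than in culture alone, and 0 higher and 2 lower with B cells than alone. The shares of the 99 that were higher were 11.1% against B cells and 5.05% against culture alone, where all genes gave 8.1% and 5.97% and bright genes 14.4% and 9.59%. The shares that were lower were 1.01% against B cells, 0.0% against culture alone and 2.02% for B cells against alone. All genes gave 12.0%, 11.7% and 2.3%, and bright genes 3.93%, 2.71% and 1.79%. For B cells against alone 0.0% of the 99 were higher, where all genes gave 1.61% and bright genes 0.902%. Their medians were 0.14, 0.11 and -0.03, beside 0.14, 0.10 and -0.03 for the 36. Both neutrophil arrays lay above both B-cell arrays for 59 of the 99 (59.6%) and above both alone arrays for 69 (69.7%), where the 36 gave 36.1% and 52.8% and bright genes 52.1% and 60.1%. The difference between the lists was not tested. By role, medians for neutrophils against B cells were 0.11 for 20 genes of transcription and signalling, 0.17 for 15 of folding, 0.12 for 14 of degradation, 0.12 for 27 of translocation and glycosylation and 0.17 for 23 of transport.

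The largest of them were Mogs, the glucosidase that starts glycan trimming, at 0.47 ± 0.12 (adjusted p = 0.152), Fkbp2, a prolyl isomerase, at 0.46 ± 0.15 (adjusted p = 0.184), and Nfyb, a subunit of the factor that binds CCAAT, at 0.46 ± 0.16 (adjusted p = 0.206). In each of them B-cell replicate 2 was the lowest array. The lowest were Creb3l1 at -0.32 ± 0.11, Pdia5 at -0.15 ± 0.11 and Bhlha15, a regulator of secretory cell structure, at -0.06 ± 0.11. Xbp1 read 9.99 and 10.07 in culture alone, 10.14 and 9.90 beside B cells and 10.18 and 10.16 beside neutrophils, a difference of 0.15 ± 0.11 against B cells (adjusted p = 0.404) and 0.14 ± 0.11 against culture alone. Its neutrophil arrays lay above all others.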

How the data were processed

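Each of 6 arrays had a deposited column of log2 values, 1 for each probe set. Per the submitters' processing notes, the authors made them with RMA, which subtracts background, normalises between arrays and summarises probes. A change shared by most genes may therefore not be visible in full, and dim signals are compressed. A shift of bright genes between arrays remained in the values, with median deviations from -0.12 on B-cell replicate 2 to 0.09 on neutrophil replicate 2. Scale was read from the values (3.04 to 14.03, array medians 7.09 to 7.22), and further centring and the array model are not given in the sources used here. The number of arrays limits the precision.

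Of 41345 probe sets, 23521 were annotated with 1 gene, 1814 with several and 16010 with none. The brightest probe set per gene over the 6 arrays gave 22180 genes. Groups came from the co-culture label. All 6 arrays entered a group-means model in limma (version 3.58.1, R version 4.3.3), with 3 residual and 5.55 prior degrees of freedom. Its two-sided p-values were adjusted by Benjamini-Hochberg over the 22180 genes, and genes under 0.05 were taken as changed. The script was tested on simulated data. "Bright" means a mean over the 6 arrays at or above the median of all genes. An interval is the 95% interval of the moderated statistic.

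The genes and lists were chosen with earlier results of these data known. All measured members are named; of the pathway list, genes that changed, otherwise the 3 with the largest difference in each direction for neutrophils minus B cells, and Xbp1. Alternatives were a brightness filter, trended robust moderation, quantile normalisation, median centring, averaged probe sets, fits of 4 arrays, a receptor gene covariate, a replicate block and leaving out each array. Promoters are RefSeq sequences of GRCm38.p6, searched on both strands. Plots used matplotlib 3.10.9.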

Additional observations from a re-analysis of the deposited data

How the results depend on the processing

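With 2 arrays a group, each array carries much of every value. The signs given here are those of uncalled differences. Among the 36 genes 0 passed in each comparison under every alternative that kept 2 arrays a group, except those named here. For neutrophils against culture alone 1 gene, Dnajb9, passed with trended robust moderation and with only the 4 arrays compared. Fits without a single array leave 1 array in a group, so their calls among the 36 are not counted here.

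The count over all genes against B cells, 11, became 91 among bright genes, 33 with trended robust moderation, 7 with quantile normalisation, 135 with median centring, 1 with only the 4 arrays compared and 0 in limma with the receptor covariate, and 1 to 5453 without single arrays, where 5453 is the count without B-cell replicate 1. Against culture alone 331 became 90, 70 with quantile normalisation, 581 with median centring, 1338 with only 4 arrays and 0 with the receptor covariate, and 5 to 1338 without single arrays. For B cells against alone 0 became 1 among bright genes, 1 with trended robust moderation and 3 with median centring, and 0 to 0 without single arrays.

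The median of the 36 against B cells, 0.14, was 0.049 with quantile normalisation, 0.227 with median centring (which moved the median of all genes from 0.01 to 0.1) and -0.086 with the receptor covariate, and 0.022 to 0.23 without single arrays. Against culture alone 0.104 became 0.05 with quantile normalisation, 0.17 with median centring and -0.128 with the receptor covariate, and 0.083 to 0.116 without single arrays. For B cells against alone -0.029 became -0.002 with quantile normalisation, -0.05 with median centring and -0.105 with the receptor covariate, and -0.135 to 0.077 without single arrays, the sign turning without B-cell replicate 2. The cause of these shifts was not tested. With quantile normalisation 9, 9 and 5 of the 36 differences changed sign in the 3 comparisons, and with the receptor covariate 25, 29 and 7. The receptor covariate cannot be separated from neutrophil co-culture, so no conclusion is drawn from its counts, medians or signs.

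Same-numbered arrays are not stated to be paired, and deviations from their group means correlated at -0.07, 0.07 and -0.15 across genes. The replicate block gave 9, 373 and 0 genes, with 0 of the 36 in each comparison. Crossing the B-cell numbers, an alternative chosen after seeing the data, gave a replicate block with 299 genes against B cells and 0 of the 36.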
